A study of Mus musculus with 6 samples.

Results

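Ndrg1, Bnip3, Ankrd37, P4ha1, P4ha2, Mgarp and Pdk1 are 7 genes that cells raise when oxygen is short and that lie outside the glycolytic pathway. They were taken by symbol from an array that measured 14860 named genes in embryonic mouse hearts, and all 7 were found, each on a single probe set. Control embryos carried floxed copies of Hic2, a zinc finger transcription factor gene (Hic2 FL/FL). In conditional knockout embryos these floxed alleles were combined with 1 copy of Mesp1-Cre (Mesp1 Cre/+; Hic2 FL/FL), a recombinase driven from a gene of the early mesoderm that forms most of the heart. No group had Mesp1-Cre without the floxed alleles, so loss of Hic2 and presence of the Cre allele cannot be told apart. Each genotype had 3 biological replicates at stage E13.5 (mid-gestation), each a pool of 4 to 6 hearts on 1 Affymetrix exon array, with 1 log2 expression value per probe set. The members were chosen by their higher values in knockout than in control hearts on these same arrays, as known HIF targets, so their differences between genotypes are given as a description, without a test.

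When oxygen falls, prolyl hydroxylases of the Egln family stop marking hypoxia-inducible factor (HIF) for destruction, and HIF binds the hypoxia response element, whose core reads ACGTG or GCGTG. Its best known targets raise glycolysis, but another set changes the mitochondria and the extracellular matrix. Bnip3 is a receptor of the outer mitochondrial membrane for the removal of mitochondria by autophagy. Pdk1 is a kinase that shuts off pyruvate dehydrogenase and so keeps carbon from pyruvate out of the citric acid cycle. Mgarp is a mitochondrial protein that was tied in neurons to the transport of mitochondria along microtubules. P4ha1 and P4ha2 are the catalytic subunits of the 2 main prolyl 4-hydroxylases that let collagen fold into its triple helix. Ndrg1 is a stress-responsive cytoplasmic protein, and Ankrd37 is a small ankyrin repeat protein encoded by a known HIF target.

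The promoters of the members are shown because the genes share HIF as a known regulator. RefSeq windows (assembly GRCm38.p6) run from 250 bases before to 50 bases after a gene's start and were present for 6 of the 7 genes, with none used here for Ndrg1. Capitals mark ACGTG or GCGTG on either strand, so that CACGT and CACGC are the same letters read on the other strand, and overlapping matches run together. The windows are Mgarp on the minus strand of chr3:51396498-51396797, Bnip3 on the minus strand of chr7:138909457-138909756, Ankrd37 on the minus strand of chr8:45999801-46000100, P4ha1 on the plus strand of chr10:59323046-59323345 and P4ha2 on the plus strand of chr11:54100674-54100973.
Mgarp: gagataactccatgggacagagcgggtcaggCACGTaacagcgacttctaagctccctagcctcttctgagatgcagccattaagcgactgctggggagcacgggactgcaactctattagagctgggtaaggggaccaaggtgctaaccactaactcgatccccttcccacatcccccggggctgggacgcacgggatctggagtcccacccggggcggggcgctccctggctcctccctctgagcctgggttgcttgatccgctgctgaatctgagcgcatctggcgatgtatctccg
Bnip3: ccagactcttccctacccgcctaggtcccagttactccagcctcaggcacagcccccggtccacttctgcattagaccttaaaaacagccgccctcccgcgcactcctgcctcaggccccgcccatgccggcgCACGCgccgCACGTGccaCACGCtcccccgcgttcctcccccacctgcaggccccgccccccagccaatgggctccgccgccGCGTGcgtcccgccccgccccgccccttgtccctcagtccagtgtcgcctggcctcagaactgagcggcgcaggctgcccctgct
Ankrd37: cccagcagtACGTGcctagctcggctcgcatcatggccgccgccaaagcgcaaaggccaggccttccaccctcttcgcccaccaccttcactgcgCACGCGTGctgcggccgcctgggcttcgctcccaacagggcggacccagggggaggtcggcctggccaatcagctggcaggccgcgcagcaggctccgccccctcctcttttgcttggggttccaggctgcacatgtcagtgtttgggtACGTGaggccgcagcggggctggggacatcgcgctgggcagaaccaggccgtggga
P4ha1: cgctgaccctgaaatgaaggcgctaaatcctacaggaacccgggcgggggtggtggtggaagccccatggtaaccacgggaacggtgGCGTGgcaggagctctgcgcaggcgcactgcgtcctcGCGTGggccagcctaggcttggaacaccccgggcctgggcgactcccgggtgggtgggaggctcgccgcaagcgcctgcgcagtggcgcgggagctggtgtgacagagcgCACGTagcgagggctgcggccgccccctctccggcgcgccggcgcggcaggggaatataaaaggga
P4ha2: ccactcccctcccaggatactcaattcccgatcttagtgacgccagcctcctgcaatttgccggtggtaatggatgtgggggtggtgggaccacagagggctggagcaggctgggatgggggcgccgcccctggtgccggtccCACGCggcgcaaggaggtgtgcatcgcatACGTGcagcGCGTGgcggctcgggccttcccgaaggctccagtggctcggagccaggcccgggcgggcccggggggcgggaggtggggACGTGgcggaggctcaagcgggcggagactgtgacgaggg

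The Bnip3 window held 5 core matches, the most of the 6 genes. A palindrome of 6 letters in it, beginning 108 bases before the start, counts on both strands. Ankrd37 and P4ha2 held 4 matches each, P4ha1 held 3, and Mgarp held 1, which lies 219 bases before the start. In Ankrd37 1 match begins 6 bases before the start, and in P4ha2 1 match begins 11 bases after it. Pdk1 has 2 RefSeq windows on the plus strand. The upstream one, chr2:71872974-71873273, held 2 matches and the downstream one, chr2:71874654-71874953, held 0. At least 1 match was present in 43.8% of all 32851 windows of 300 bases, and in 69.2% of the 9690 windows with at least 60% G or C. All the upstream windows of the 6 genes fell in that G and C rich class, at 60.7% to 71.7%. The letters GGGCA, the core of the element known for HIC1, the paralogue of HIC2, occurred once each in Bnip3 and Ankrd37 on either strand and 0 times in the windows of the other 4 genes, against 53.5% of all windows with at least 1 and 64.6% of those with at least 60% G or C. These matches are letters in a window and do not show binding.

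The arrays behaved alike. They correlated with each other at 0.993 to 0.997 over the 14860 genes, and precision is limited by having 3 arrays per genotype. Cardiomyocyte markers stood at a mean log2 value of 13.1 to 13.2 per array and liver markers at 5.96 to 6.30. Lung and foregut markers had a mean of 6.91 in control replicate 1, against 6.37 to 6.50 in the other arrays. Without control replicate 1 the members' median difference was 0.41. Control replicate 3 stood apart in the Y-linked gene Eif2s3y (4.36, against 8.51 to 9.64 elsewhere), and without that array the members' median difference was 0.41 in place of 0.45. The Hic2 probe set itself was at 8.17 ± 0.08 in controls and 8.02 ± 0.06 in knockouts (SD, n = 3 each), a difference of -0.14 ± 0.07 (SE). That difference did not pass limma's test across all genes (adjusted p = 0.314), and the two-sided exact permutation p was 0.1, the lowest that 3 against 3 arrays can reach. The sources used here do not place its probes relative to the floxed segment, so Hic2 does not check the genotype labels.

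All 7 members were higher in knockout hearts, by 0.17 to 1.06 on the log2 scale with a median of 0.45, or 1.37-fold. Over all 14860 genes the median difference was 0.005, and 51.6% of genes were higher. In each of the 7 genes all 3 knockout arrays lay above all 3 control arrays, a separation in that direction that 14.2% of all genes showed. In the fit across all genes 1 of the 7, Mgarp, was among the genes past the limma threshold (adjusted p under 0.05), a set that held 0.336% of genes upward and 0.559% in either direction. Mgarp passed under 8 of 14 alternative settings, and of the refits without 1 array only in that without knockout replicate 2. The counts over the 7 members follow from how the members were picked and nothing is read from these counts. In whole-heart RNA, more RNA per cell and more cells of a type that expresses a gene cannot be told apart.

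**Figure D1:**
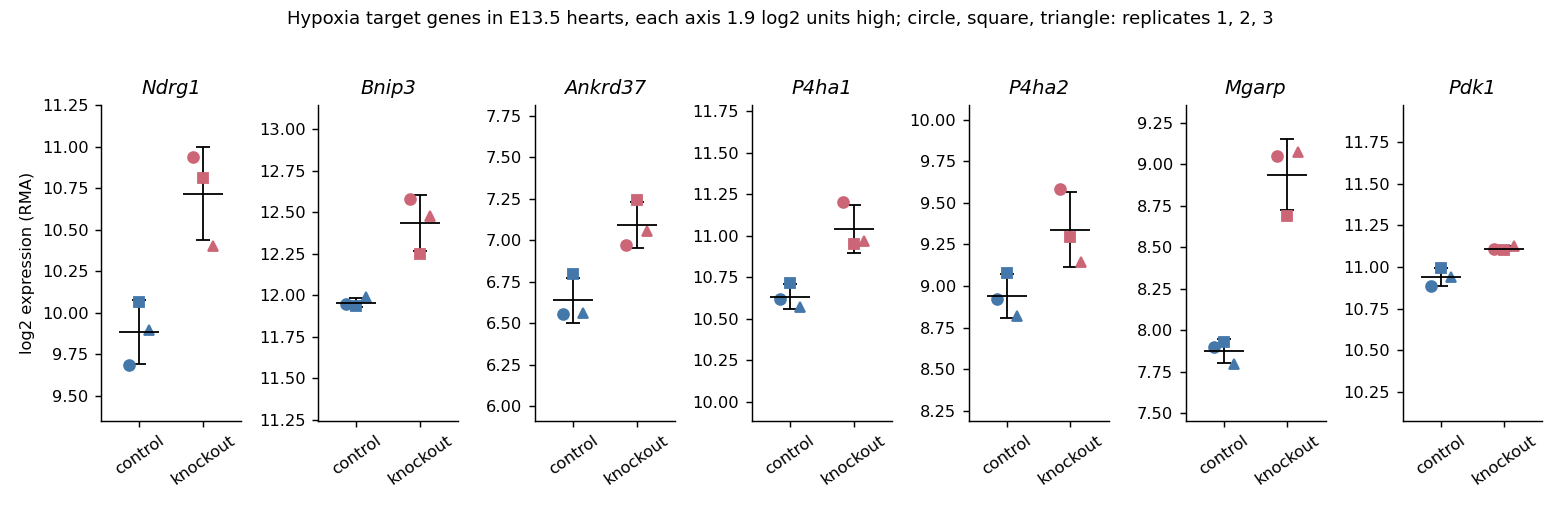
Log2 expression (RMA) of the 7 genes in 3 control arrays (blue) and 3 knockout arrays (red), with 1 panel per gene, symbols for replicates 1 to 3, and black bars for the mean ± SD. The vertical axes differ in position but span the same number of log2 units, so the gap is widest for Mgarp (1.06) and narrowest for Pdk1 (0.17).

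Among the mitochondrial members, Mgarp showed the widest gap. Its probe set (6904972) read 7.90, 7.93 and 7.79 in control replicates 1 to 3 and 9.05, 8.69 and 9.08 in knockout replicates 1 to 3. The lowest knockout array stood 0.76 above the highest control array, a distance larger than the range within either genotype (0.14 in controls, 0.39 in knockouts). The difference was 1.06 ± 0.11 (SE), or 2.09-fold, and it ranked 8th of the 14860 genes from the top.

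Bnip3 was tightly grouped in the controls and more spread in the knockouts. Its probe set (6971987) read 11.95, 11.93 and 11.99 in the controls and 12.58, 12.25 and 12.48 in the knockouts. The controls lay within 0.05 of each other while the knockouts spanned 0.33, with replicate 2 nearest to the controls. The difference was 0.48 ± 0.09 (SE), or 1.39-fold.

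Pdk1 differed least. Its probe set (6878035) read 10.89, 10.99 and 10.94 in the controls and 11.11, 11.10 and 11.12 in the knockouts. The 3 knockout arrays agreed within 0.02 and lay 0.11 above the highest control, a gap about equal to the control range (0.11). The difference was 0.17 ± 0.06 (SE), or 1.13-fold, and 86.0% of all genes had a lower value of knockout minus control.

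The collagen prolyl 4-hydroxylase subunits differed by nearly the same amount. The P4ha1 probe set (6768123) read 10.62, 10.72 and 10.57 in the controls and 11.21, 10.95 and 10.97 in the knockouts, a difference of 0.41 ± 0.09 (SE). The P4ha2 probe set (6781012) read 8.92, 9.08 and 8.82 in the controls and 9.58, 9.29 and 9.14 in the knockouts, a difference of 0.40 ± 0.12 (SE). Both genes had the same highest arrays, knockout replicate 1 and control replicate 2, and the same lowest control, replicate 3. Their groups were unequally far apart, since the lowest knockout array stood 0.23 above the highest control for P4ha1 and only 0.06 above it for P4ha2.

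Ndrg1 had the second largest difference and the widest spread. Its probe set (6836358) read 9.68, 10.07 and 9.90 in the controls and 10.94, 10.81 and 10.40 in the knockouts. Knockout replicate 3 lay well below the other knockouts, and still 0.33 above the highest control. The difference was 0.83 ± 0.15 (SE), or 1.78-fold. Without control replicate 1, 2 or 3 in turn, or knockout replicate 1, 2 or 3, it ranged from 0.72 to 0.99.

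Ankrd37 gave a signal in the lower part of the array's range. Its probe set (6982153) read 6.56, 6.79 and 6.56 in the controls and 6.97, 7.24 and 7.06 in the knockouts. Here knockout replicate 2 was the highest and replicate 1 the lowest, the opposite of P4ha1 and Bnip3. The difference was 0.45 ± 0.10 (SE), or 1.37-fold, and RMA compresses differences of dim probe sets.

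The members shared part of their order within a genotype, which the comparison of genotypes does not use. Control replicate 2 was the highest control in 6 of the 7 genes, with Bnip3 the exception. Over all genes control replicate 2 was the highest control in 37.8%. Knockout replicate 1 was the highest knockout in 4 of the 7 (Ndrg1, Bnip3, P4ha1 and P4ha2), knockout replicate 3 in Mgarp and Pdk1, and knockout replicate 2 in Ankrd37. Relative to the control mean, the median member stood at 0.62 in knockout replicate 1, 0.35 in replicate 2 and 0.42 in replicate 3, against -0.02, 0.08 and -0.06 in control replicates 1, 2 and 3. In 6 of the 7 genes the SD was larger among knockouts than among controls, Pdk1 being the exception, and 49.6% of all genes had the larger SD among knockouts.

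**Figure D2:**
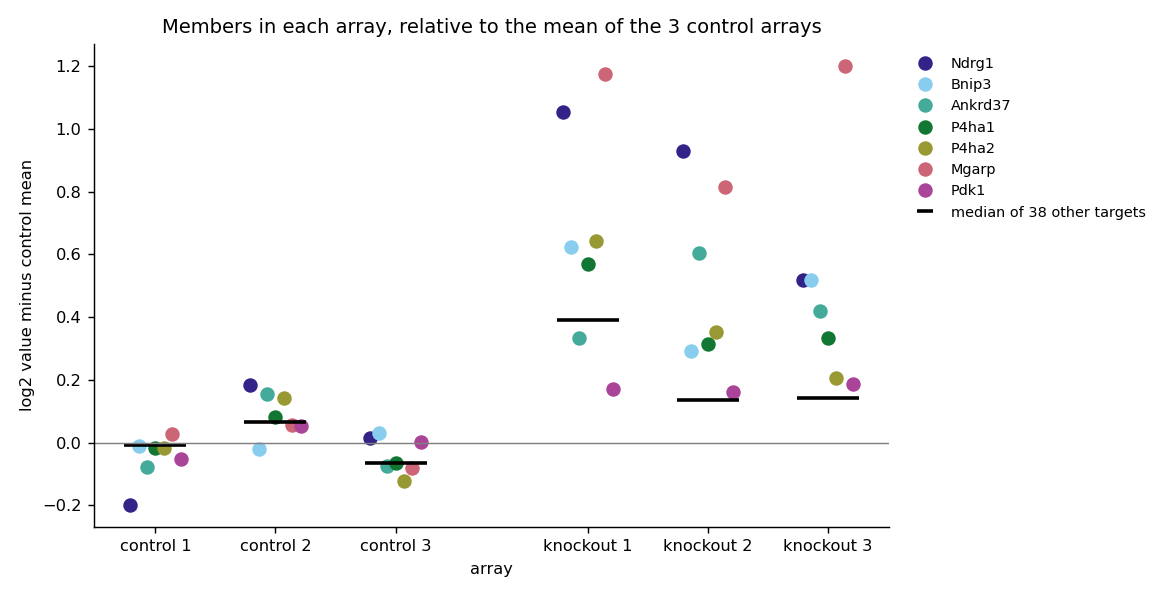
Log2 value of each of the 7 genes in each array minus that gene's mean over the 3 control arrays, with a black line for the median of 38 other hypoxia targets outside glycolysis. Knockout replicate 1 holds the highest median of the 7 genes (0.62) and of the other targets (0.39).

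The other HIF targets outside glycolysis were mostly higher as well. Of 42 listed genes 38 were measured, 32 higher and 6 lower in the knockout, with a median difference of 0.24. Of the 38, 22 had all 3 knockout arrays above all 3 control arrays (57.9%, against 14.2% of all genes), and 1 had all below. By limma over all genes 2 rose and 0 fell, or 5.26% upward against 0.336% of all genes. The list was drawn up knowing that Egln3, Car9, Adm and Vegfa were higher in these arrays, so it is not independent support for a direction.

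Egln3 is a HIF-induced prolyl hydroxylase that marks HIF for destruction. It read 9.78, 9.97 and 9.65 in the controls and 11.16, 10.88 and 10.80 in the knockouts, and rose by 1.15 ± 0.12 (SE, limma adjusted p = 0.0144). Car9, a membrane carbonic anhydrase that exports acid from hypoxic cells, read 6.21, 6.40 and 6.13 in the controls and 6.91, 6.88 and 6.78 in the knockouts. It rose by 0.61 ± 0.08 (SE, limma adjusted p = 0.0424). In both genes the groups lay apart, with control replicate 2 the highest control. Leaving out control replicate 1, 2 or 3 ended the Egln3 call (limma adjusted p = 0.0735, 0.0605 and 0.0716), and leaving out any 1 of the 6 arrays ended the Car9 call (0.0605 to 0.131).

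None of the others passed over all genes, and they spanned a wide range. Their largest differences were in the vasodilator peptide Adm (1.00 ± 0.21, SE), the transcriptional repressor Bhlhe40 (0.78 ± 0.21), the secreted glycoprotein Stc2 (0.75 ± 0.18), Tmem45a (0.68 ± 0.17) and the cytochrome oxidase isoform Cox4i2 (0.66 ± 0.13). At least 1.5-fold higher values were seen in 7 of the 38, against 0.572% of all genes. The mitochondrial proteins Higd1a (0.44 ± 0.09) and Fam162a (0.40 ± 0.08) and the lipid droplet protein Hilpda (0.52 ± 0.09) differed by amounts like those of Bnip3, P4ha1 and P4ha2. Mxi1, Hmox1 and Gys1 differed by less than 0.02 from 0. At the other end Bnip3l was the lowest of the 38 at -0.20 ± 0.12, and the transferrin receptor Tfrc was at -0.15 ± 0.07. The examples named here were chosen after their values were seen.

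**Figure D3:**
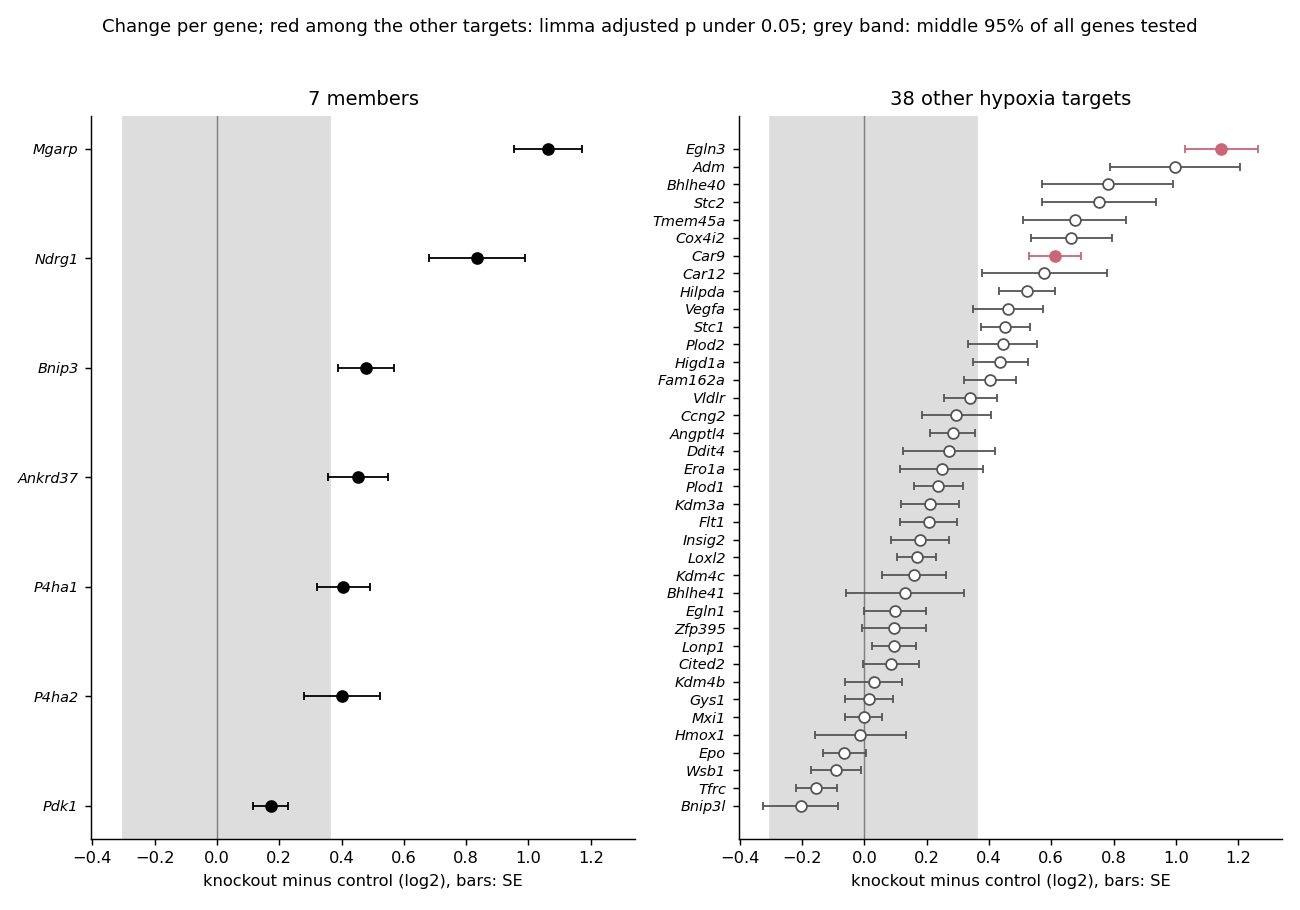
Knockout minus control on the log2 scale with SE bars for the 7 genes (left, black, shown without a test) and for 38 other hypoxia targets outside glycolysis (right, with red for limma adjusted p under 0.05 over all genes, namely Egln3 and Car9). The grey band holds the middle 95% of all genes, from -0.30 to 0.36, and 6 of the 7 genes and 14 of the 38 lie above it.

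The order of arrays seen in the members recurred in this list. Knockout replicate 1 was the highest knockout in 32 of the 38 genes (84.2%), against 38.9% of all genes, and control replicate 2 the highest control in 25 (65.8%), against 37.8%. Relative to the control mean, the median of the 38 was 0.39 in knockout replicate 1, 0.13 in replicate 2 and 0.14 in replicate 3. Control replicates 1, 2 and 3 had medians of -0.01, 0.07 and -0.06.

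Relatives and partners of the members gave little difference. The 7 lists held 58 measured genes other than the members, each counted once, with a median difference of -0.02. Of these, 5 were also among the 38 other hypoxia targets (Egln3, Egln1, Plod1, Plod2 and Bnip3l), so the 2 sets are not separate evidence. By limma over all genes 1 rose (Egln3) and 0 fell, or 1 of 58 against 0.336% of all genes upward. An unadjusted p under 0.05 was seen in 12 of the 58 (20.7%), near the 17.5% of all genes, and the unadjusted counts of single lists are to be read against that share.

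In the oxygen-sensing machinery 3 of 10 genes were higher and 7 lower, with a median of -0.06 and 3 at an unadjusted p under 0.05. Besides Egln3 these were Hif1a, the oxygen-regulated HIF subunit, and the prolyl hydroxylase Egln2, both named after their values were seen. Hif1a read 12.51, 12.64 and 12.48 in the controls and 12.32, 12.25 and 12.35 in the knockouts, a difference of -0.23 ± 0.07 (SE, limma adjusted p = 0.157). Egln2 was at -0.13 ± 0.06 (limma adjusted p = 0.275). In both genes each knockout value was under each control value, as in 10.4% of all genes, and neither passed the test.

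For the collagen-modifying genes, 7 of 10 were higher and 3 lower with a median of 0.03, and 0 passed limma over all genes (2 at an unadjusted p under 0.05). The lysyl hydroxylases Plod2 (0.44 ± 0.11, SE, adjusted p = 0.13) and Plod1 (0.24 ± 0.08, adjusted p = 0.19), which prepare collagen for crosslinking, had the largest differences. P4ha3, the third catalytic subunit of the prolyl 4-hydroxylases, was at -0.16 ± 0.09 (adjusted p = 0.416) with overlapping groups. Collagens themselves, the substrates, were lower in 5 of 7 genes with a median of -0.10, and 0 passed (2 at an unadjusted p under 0.05). Col3a1 was at -0.24 ± 0.08 and Col5a1 at -0.22 ± 0.08.

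For pyruvate dehydrogenase and its regulators, 5 of 8 genes were higher and 0 passed limma over all genes (1 at an unadjusted p under 0.05). The kinases related to Pdk1 went different ways, with Pdk4 at 0.30 ± 0.07 (SE, adjusted p = 0.129), Pdk2 at 0.15 ± 0.07 (adjusted p = 0.339) and Pdk3 at -0.14 ± 0.06 (adjusted p = 0.32). Pdk4 read 10.65, 10.66 and 10.71 in the controls and 10.94, 10.87 and 11.10 in the knockouts, with groups apart. In the Ndrg family Ndrg2 was at 0.13 ± 0.06, Ndrg3 at 0.08 ± 0.07 and Ndrg4 at -0.08 ± 0.07, and 0 of the 3 passed (0 at an unadjusted p under 0.05).

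Mitophagy genes were split, with 6 of 13 higher and 7 lower, a median of -0.03 and 0 past limma's threshold over all genes (3 at an unadjusted p under 0.05). Bnip3l, the close relative of Bnip3 that clears mitochondria from maturing red cells, was at -0.20 ± 0.12 (SE, adjusted p = 0.417) with overlapping groups. The autophagosome proteins Map1lc3a (0.27 ± 0.08) and Gabarapl1 (0.21 ± 0.06) were the highest and Fkbp8 (-0.25 ± 0.09) the lowest. Of the genes listed for mitochondrial transport with Mgarp, which include mitochondrial fusion genes, 5 of 7 were lower and 0 passed (1 at an unadjusted p under 0.05). Trak2 was at -0.18 ± 0.07, Kif5b at -0.14 ± 0.07 and Rhot2 at -0.10 ± 0.06.

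Markers of other cell types moved in the same arrays. All 11 measured erythroid markers were lower in the knockout, 5 of them past limma's threshold (Trim10, Slc4a1, Epb42, Alas2 and Rhd, against 0.222% of all genes downward). Their summed signal, as log2 of the sum of linear values, was 15.5 to 15.7 in controls and 15.2 to 15.4 in knockouts. All 11 macrophage markers were higher, with Fcgr3 and C1qc past the threshold and a summed signal of 11.9 to 12.1 in controls and 12.3 to 12.4 in knockouts. Epicardial markers were higher in 5 of 7, with Msln and Upk1b past the threshold and a summed signal of 12.8 to 12.9 against 13.0 to 13.1. The 2 lower ones were Tbx18 (-0.24 ± 0.08, SE, limma adjusted p = 0.197) and Aldh1a2 (-0.21 ± 0.17, limma adjusted p = 0.577). Endothelial markers were higher in 6 of 8 with 0 past the threshold (3 at an unadjusted p under 0.05), and their summed signal was 14.3 in each control and 14.4 to 14.5 in knockouts. The part these cells have in the members' values was not tested.

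By list means, knockout replicate 1 was the highest knockout for the members and for 3 of these 4 marker lists. The mean log2 value of the 7 members was 10.21, 10.05 and 10.03 in knockout replicates 1, 2 and 3. The mean ran in the same array order for erythroid markers (9.46, 9.21 and 9.13), epicardial markers (10.30, 10.17 and 10.12) and endothelial markers (11.09, 11.04 and 11.01), and ran the other way for macrophage markers (8.67, 8.71 and 8.76). By the median relative to the control mean, the members ran 0.62, 0.35 and 0.42, so the order of knockout replicates 2 and 3 depends on the summary. The median erythroid marker on that scale was -0.62, -0.78 and -0.97. The median macrophage marker was 0.29, 0.30 and 0.48, highest in knockout replicate 3. The median epicardial marker was 0.34, 0.26 and 0.23 and the median endothelial marker 0.13, 0.05 and -0.01, both highest in knockout replicate 1. The 5 measured cardiomyocyte markers had medians of -0.07, 0.04 and -0.0044 in knockout replicates 1, 2 and 3. Of these 5, 2 were higher and 3 lower, with 0 past limma's threshold over all genes and 1 at an unadjusted p under 0.05. That gene was Nkx2-5, at -0.37 ± 0.10 (SE, limma adjusted p = 0.157). Each of its knockout values was under each control value, as in 10.4% of all genes.

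**Figure D4:**
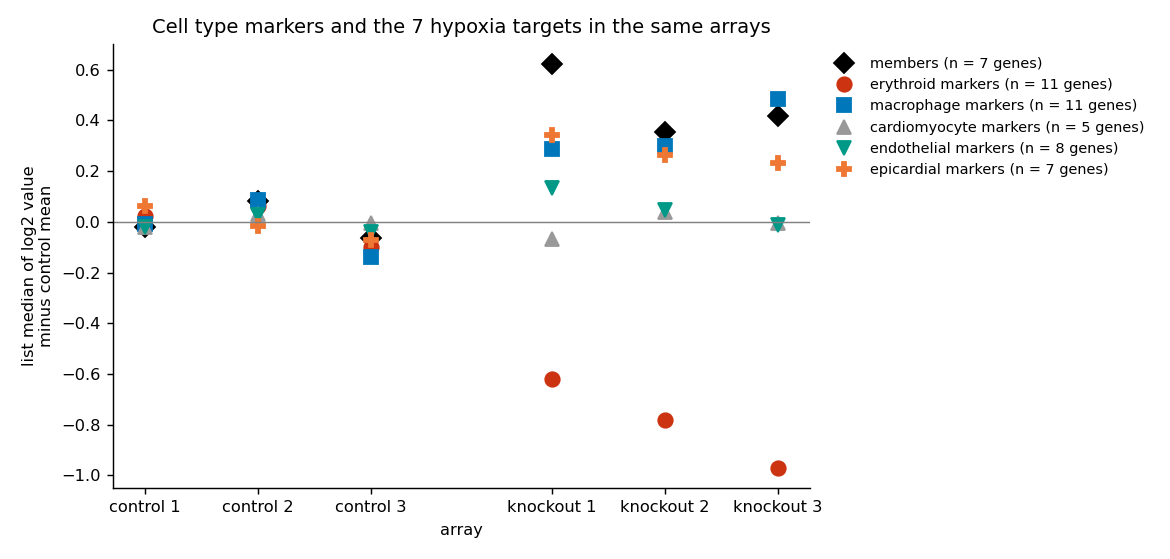
Median over each list of log2 value minus the control mean, by array, for the 7 hypoxia targets and for markers of 5 cell types. Erythroid markers lie lowest in knockout replicate 3 (-0.97), and the hypoxia targets lie highest in knockout replicate 1 (0.62).

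The other marker lists gave 2 further calls by limma over all genes. Tnnt3, a fast skeletal troponin, rose among 7 skeletal muscle markers, of which 4 were higher and 3 lower with a median difference of 0.02. The pericyte potassium channel gene Kcnj8 fell among 6 smooth muscle and pericyte markers, of which 2 were higher and 4 lower with a median of -0.06. Neither gene stands for its list. Among 6 mesenchymal, 4 liver, 4 lung and foregut and 2 neural markers 0 passed, with 2, 1, 0 and 0 at an unadjusted p under 0.05. Of all 11 marker genes past the threshold, Tnnt3 passed in each of the 6 refits without 1 array. Trim10 and Alas2 passed in 5, Slc4a1 in 3 and Epb42 in 2, while Rhd, Fcgr3, C1qc, Msln, Upk1b and Kcnj8 passed in 0. Between 1 (without control replicate 2) and 5 (without knockout replicate 1 or 2) of the 11 passed in a single refit.

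The genes with the profile nearest to the members were found by the root mean square difference, over the 6 arrays, from the members' median profile after each gene's own mean was removed. The nearest was Plod2, at 0.04 log2 units, followed by Enpp6, Rnd1, Nr4a1 and Ccl7 at 0.05 each. Plod2 read 10.34, 10.46 and 10.18 in the controls and 10.98, 10.69 and 10.63 in the knockouts, the same order of arrays as P4ha2. By the same measure P4ha1 was the member nearest to the median profile, at 0.03, and Mgarp the farthest, at 0.33. Being near in profile reflects the size of the difference as well as the order of arrays.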

How the data were processed

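Pooled E13.5 mouse hearts gave 6 samples of total RNA, each hybridised to 1 Affymetrix mouse array. The values deposited by the authors are log2 expression values that Affymetrix Expression Console computed by RMA, according to the submitters' processing notes. The sources used here give neither versions nor the probe set level. RMA brings arrays to a shared distribution, so a change common to most genes would not show. Array values ran from 2.08 to 14.5, and no detection calls were used here.

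Of 23332 rows, 14996 carried 1 gene symbol in the platform annotation, 1019 several and 7317 none. Where a gene had several rows the brightest was kept, leaving 14860 genes. Of the single-symbol rows 14941 matched a RefSeq gene table by identifier, and 0 symbols changed. No row was filtered for low signal.

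Genes were compared with limma 3.58.1 in R 4.3.3 (lmFit, eBayes), knockout minus control, two-sided, with Benjamini-Hochberg adjustment over all 14860 genes and a threshold of 0.05. Errors of differences are standard errors from that fit with 7.46 degrees of freedom. Data were simulated from the real means with independent noise at each gene's moderated SD. There 97 of 100 genes changed 1.5-fold and 98 of 100 changed 2-fold were called, with 9 false calls among the 14660 genes left unchanged. Moderated SDs are already drawn together across genes, so these rates need not hold on the real arrays. In the real arrays 33 of the 85 genes at least 1.5-fold higher passed. Those genes were picked by their observed difference, so that share and the simulated rates are not like measures. The members and gene lists were chosen with earlier results of these data known. Hic2, the 7 members, every listed gene past the threshold and the 5 nearest profiles were named. For lists of relatives and partners without a call, up to 3 genes with the largest difference were named. Of the marker lists without a call, only Nkx2-5 was named. Bnip3l, Hif1a, Egln2, Tbx18, Aldh1a2, Eif2s3y and the examples without a call among the other targets were named outside that rule. Nothing in the labels says that same-numbered replicates share a litter or day. Alternatives were other filters, scalings and variance models, the replicate number as a block, and leaving out each array. The promoter sequences are RefSeq's (GRCm38.p6), and motifs were matched exactly on both strands.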

Additional observations from a re-analysis of the deposited data

How the results depend on the processing

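The number of genes past limma's threshold over all genes depended on the setting. Against 83 genes, 367 passed with only the brighter genes tested, 203 with a variance trend and robust moderation, 733 with array weights and 38 with the replicate block, and 0 passed when every row was tested (2063 named genes at an unadjusted p under 0.05). Leaving out 1 array gave 3 to 28. Of the other hypoxia targets outside glycolysis 2 passed, against 9 with the brighter genes, 5 with the variance trend, 10 with array weights, 1 with quantile normalisation, 1 with the replicate block, 0 with every row tested (19 at an unadjusted p under 0.05) and 0 to 4 without 1 array. Each of these calls was upward. Of the related family and partner genes 1 passed, against 3 with array weights, 0 with every row tested (11 at an unadjusted p under 0.05) and 0 to 1 without 1 array. The causes of these shifts were not tested. Testing every row raised the number of tests and also changed the moderated errors (SE of Mgarp 0.119, against 0.109). Hic2 stayed below 0 and short of the threshold under all 14 alternatives, with -0.18 to -0.10 when 1 array was left out. The members' differences stayed above 0 in all 97 values recomputed, but many of these values could not move. Testing brighter genes only, the dimmest row or every row, the variance trend and the replicate block left each member's difference unchanged. The members were also picked for higher values on these arrays, so nothing is read from the sign. Of the 97 values, 3 moved by more than 1 SD, all with array weights, to 0.36 for Bnip3, 0.58 for Ankrd37 and 0.88 for Mgarp. The members' median of 0.45 ranged from 0.41 to 0.47 without 1 array, 0.41 without control replicate 3, and was 0.37 with array weights. Deviations of same-numbered replicates correlated at -0.04, 0.02 and 0.13, within the -0.23 to 0.22 of differently numbered ones. With so few arrays these values cannot show whether same-numbered samples share a litter or day. Dim probe sets such as Ankrd37 and Car9 lie nearer to background, where differences are compressed.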
